A study of Mus musculus with 12 samples.

Results

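A set of 10 genes that encode sensory neuropeptides or peptides known to rise after nerve injury were followed in mouse dorsal root ganglia: Calca, Calcb, Tac1, Adcyap1, Gal, Npy, Nts, Sst, Nppb and Ucn2. They were taken by gene name from the deposited count table, where all 10 had 1 row each among 54532 genes. These ganglia house the somata of sensory neurons that serve trunk and limbs. All mice were of strain C57BL/6 and received D-alanine. Genotype CDH5-Cre gave the 6 control libraries; in it the promoter of vascular endothelial cadherin drives Cre recombinase. Genotype DAAO-TGCdh5 gave the 6 DAAO libraries; DAAO is D-amino acid oxidase, an enzyme that makes hydrogen peroxide from D-alanine. Cre stands in the titles of the DAAO libraries but not in their genotype label, and the labels give no age, sex or pooling of animals. The comparison asked which peptide transcripts differed between these genotypes.

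Neuropeptides are made as longer precursors, packed into dense-core vesicles, cut by prohormone convertases and released from sensory endings in skin, viscera and spinal cord. Peptidergic nociceptors, the small neurons that signal pain and heat, carry calcitonin gene-related peptide (CGRP), substance P and PACAP, while a class of itch neurons, here called pruriceptors, carries somatostatin, natriuretic peptide B and neurotensin. After a peripheral nerve is cut, rodent sensory neurons are known to make galanin and neuropeptide Y in large amounts and less CGRP and substance P.

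Of the 10 peptide genes 1 passed the test by edgeR (adjusted p under 0.05), beside 0.753% of the 17002 genes tested. Ucn2, which encodes the corticotropin-releasing factor relative urocortin 2, rose 15.7-fold in DAAO ganglia, and the other 9 did not pass. The rise of Ucn2 rests on 32 control counts, and limma-voom with sample weights did not call it (adjusted p = 0.0802). Gal, the galanin gene, had a median of 21.0 CPM (counts scaled to the library size and TMM factor) in control and 23.2 CPM in DAAO libraries, and its fold change of 1.10 had a 95% interval from 0.762 to 1.58. Calca, the gene of alpha-CGRP, had means of 1537 ± 316 and 1519 ± 218 CPM (SD, n = 6 per group). Atf3, a transcription factor that injured sensory neurons induce, rose in the same libraries, by 2.16 ± 0.23 on the log2 scale (SE; adjusted p = 0.000235 by edgeR's quasi-likelihood test).

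The coding sequence of Ucn2 is shown because it is the 1 member called. The last 300 of its 342 coding bases (113 residues) are given, which hold the part for the released peptide. They lie at chr9:108986214-108986513 (GRCm38, plus strand, from GENCODE), with the stop codon in capitals.

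Ucn2: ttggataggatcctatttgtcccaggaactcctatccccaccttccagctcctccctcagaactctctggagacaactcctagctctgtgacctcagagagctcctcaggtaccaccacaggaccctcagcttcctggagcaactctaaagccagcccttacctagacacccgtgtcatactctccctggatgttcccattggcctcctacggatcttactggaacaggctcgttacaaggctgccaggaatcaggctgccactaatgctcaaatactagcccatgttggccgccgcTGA

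Calca and Calcb are paralogs on chromosome 7, 82286 bases apart, and are shown because reads of near-identical copies can be counted under the wrong gene. The spliced coding stretches below begin at the longest run shared by their transcripts, 61 bases, and encode most of the CGRP peptide; over the 120 bases 5 differ, in capitals. They lie at chr7:114632482-114634469 on the minus strand and chr7:114721711-114722092 on the plus strand (GRCm38, from GENCODE). No source used here says how the counting treated shared reads.

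Calca: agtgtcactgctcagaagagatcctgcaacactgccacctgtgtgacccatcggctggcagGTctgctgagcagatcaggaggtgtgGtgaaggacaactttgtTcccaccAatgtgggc
Calcb: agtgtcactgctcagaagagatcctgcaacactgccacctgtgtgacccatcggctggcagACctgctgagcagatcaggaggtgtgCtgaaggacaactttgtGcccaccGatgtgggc

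Upstream sequence was present in the RefSeq table (GRCm38.p6) for 8 members; Calcb and Ucn2 were missing. Because Atf3 and Jun rose, the 250 bases before each start were searched on both strands for the AP-1 site TGANTCA, for the cyclic AMP response element TGACGTCA and for its shorter form TGACG, which every full element also holds. Nts was the 1 member of 8 with an AP-1 site, 207 bases upstream, against 7.82% of 27025 genes. Sst was the 1 member of 8 with the cyclic AMP element, 48 bases upstream, against 1.77% of genes. The shorter form was present in 5 of 8, Calca, Tac1, Adcyap1, Nts and Sst, against 19.8% of genes. The upstream stretches of Nts and Sst follow, at chr10:102490419-102490668 and chr16:23890845-23891094, both minus strand, with the AP-1 site and the full element in capitals. They lie before the RefSeq start, which differs from that of the count table. Each overlaps its gene's span there, which reaches 102490486 for Nts and 23890958 for Sst. The full element of Sst lies inside that span. A match describes letters and not binding.

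Nts: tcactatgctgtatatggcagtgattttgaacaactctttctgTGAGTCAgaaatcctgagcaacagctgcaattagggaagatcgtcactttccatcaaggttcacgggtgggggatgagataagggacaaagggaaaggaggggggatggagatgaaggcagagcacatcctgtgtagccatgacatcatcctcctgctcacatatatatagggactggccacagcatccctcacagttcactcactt
Sst: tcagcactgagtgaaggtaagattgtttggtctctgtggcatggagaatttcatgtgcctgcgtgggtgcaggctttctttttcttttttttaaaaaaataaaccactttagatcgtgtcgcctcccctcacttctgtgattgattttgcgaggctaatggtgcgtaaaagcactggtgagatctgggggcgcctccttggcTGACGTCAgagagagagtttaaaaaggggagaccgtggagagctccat

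Each library held between 13227518 and 23884927 counts. Of 17002 genes tested, 128 (0.753%) passed at an adjusted p under 0.05, 86 of them higher in DAAO (0.506%) and 42 lower (0.247%). The 10 pan-neuronal markers, among them Tubb3 and Isl1, were all detected, with summed levels of 9341 to 14316 CPM in control and 7352 to 12147 CPM in DAAO libraries; Snap25 was the 1 called, lower in DAAO (adjusted p = 0.0498), and the call was kept only without control 2 or DAAO 4 when each of the 12 libraries was left out. Libraries differed in their content of neighbouring tissue: the sum of 9 spinal cord markers ran from 25.8 to 2451 CPM in controls, highest in control 2, and from 101 to 755 CPM in DAAO, and the sum of 6 skeletal muscle markers reached 2181 CPM in control 4. Xist and Y-linked transcripts were both above 10 CPM in 5 libraries, so that n = 6 counts libraries and not animals. The labels do not say that libraries came from separate animals, so p-values measure the spread between these libraries. Cdh5, whose promoter is named in the labels, had a control mean of 21.5 ± 6.41 CPM and a DAAO mean of 23.4 ± 8.48 CPM (adjusted p = 0.937); it checks neither Cre nor the transgene.

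The levels of the 10 genes, compared per kilobase of the table's gene length (CPM per kb), spanned a wide range. Calca stood highest, at 907 ± 154 CPM per kb over the 12 libraries (SD), and above the next gene in all 12. Calcb followed at 120 ± 24.6 and Tac1 at 105 ± 16.7 CPM per kb, and Calcb was above Tac1 in 9 of the 12 libraries. This order rests on the division by gene length, 1264 bases for Calcb and 3399 for Tac1. By CPM alone Tac1 was above Calcb, with means of 342 against 162 CPM in controls and 372 against 141 CPM in DAAO. Adcyap1 (48.3 ± 8.39 CPM per kb) and Sst (47.4 ± 30.8) differed by less than their spread, as did Gal (33.6 ± 12.6) and Nppb (30.0 ± 8.88). Nts had 17.8 ± 5.74 CPM per kb. Npy (4.35 ± 5.45) and Ucn2 (2.01 ± 2.22) were lowest. Calca made up 68.4% of the summed CPM per kb of the 10 genes in controls and 69.5% in DAAO. The coefficient of variation was lower in DAAO libraries for 9 of the 10 genes. That of Adcyap1 was 22.5% in controls and 10.4% in DAAO, and that of Nppb 37.9% and 11.7%. Gal was the exception, at 38.7% and 39.4%. The SD of Ucn2 was higher in DAAO, at 0.256 CPM in controls and 2.06 CPM in DAAO. The control spread of Npy and Sst includes the high value of control 2. The share of all genes with a lower coefficient in DAAO was not computed.

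**Figure D1:**
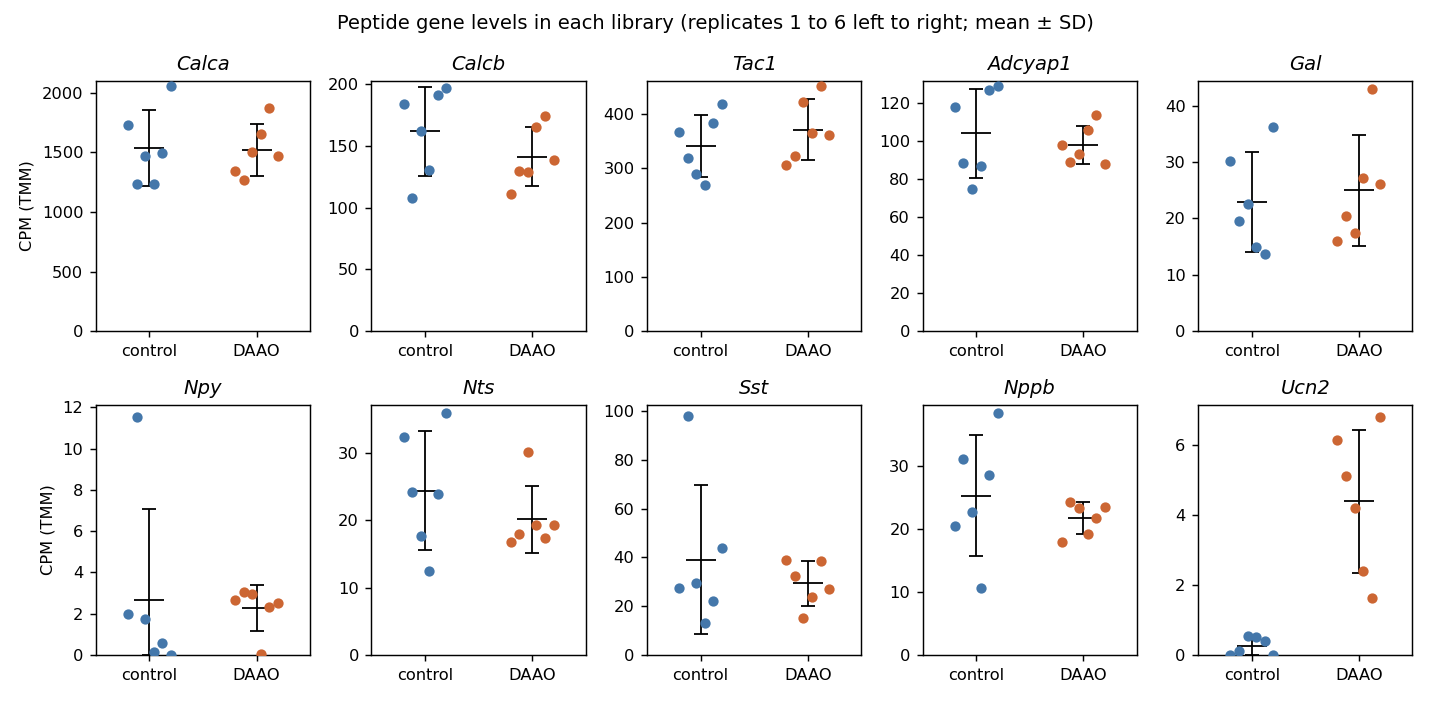
Level of each of the 10 peptide genes in CPM on linear axes from 0, one point per library (replicates 1 to 6 from left to right in each group), with the mean and SD of the 6 libraries. Only in the Ucn2 panel do the groups not overlap; control 2 stands above the other controls for Npy and Sst.

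Urocortin 2 acts on the receptor Crhr2 and is best known for its actions on heart, vessels and skeletal muscle. Ucn2 (ENSMUSG00000049699; chromosome 9, 108986010 to 108987164) had 0, 0.256 and 0.549 CPM as lowest, median and highest value in the control libraries, and 1.64, 4.67 and 6.82 CPM in the DAAO libraries. The groups did not overlap, which held for 1.45% of all genes tested; control 1 and control 6 had no read, where 3 counts would have been 0.166 and 0.240 CPM, and DAAO 4 and DAAO 5 were the lowest of their group at 2.40 and 1.64 CPM. Over the 6 libraries of each group 32 and 467 counts were behind these values. Single libraries had 0 to 11 counts in controls and 39 to 112 in DAAO, so Ucn2 passed the count filter through its DAAO libraries. That 6 of 6 DAAO libraries were above the control median restates the lack of overlap and is no further support. The log2 fold change was 3.97 ± 0.71 (SE), a fold change of 15.7 with a 95% interval from 6.01 to 41.0 (adjusted p = 0.0109 by edgeR's quasi-likelihood test). It was the 51st smallest p of the 17002 genes. Leaving out each library in turn kept the call (adjusted p from 0.0109 to 0.0473), and limma-voom with sample weights ended it (log2 fold change 4.38, adjusted p = 0.0802).

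The neighbours of Ucn2 on the same strand were not called. Col7a1, which ends 1135 bases upstream on the same strand, had a log2 fold change of 0.16 (6.08 and 6.74 CPM, adjusted p = 0.959), and Pfkfb4, 4614 bases downstream, had 0.57 (19.6 and 29.2 CPM, adjusted p = 0.111). No annotated gene of the table overlapped Ucn2. The receptor Crhr2, at 1.99 ± 1.60 CPM in controls and 2.03 ± 0.675 in DAAO, had a log2 fold change of 0.04 ± 0.66 (adjusted p = 0.996). The related ligands Ucn and Ucn3 and the founding peptide Crh were too low to be tested, with at most 70 counts over 6 libraries. Crhbp, the protein that binds and holds such peptides, had 1.79 ± 0.874 and 0.755 ± 0.217 CPM and did not pass (adjusted p = 0.413).

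The libraries are of bulk tissue, in which fewer cells of a type cannot be told apart from less RNA per cell. Macrophage markers moved with the groups beside Ucn2: the sum of 6 markers ran from 52.1 to 262 CPM in controls and from 291 to 1457 CPM in DAAO. Lyz2, a lysozyme, rose from 113 to 623 CPM (adjusted p = 0.0450 by edgeR). It was the 1 marker of 6 called, beside 0.506% of all genes tested that were called higher. No macrophage marker was called in 8 of the 12 fits that left out 1 library, those without control 1, 4, 5 or 6 or DAAO 1, 2, 3 or 6. Cd68 also did not overlap (adjusted p = 0.0902 by edgeR), as held for 1.45% of all genes tested, and all 6 had positive log2 fold changes. Their part in the rise of Ucn2 was not tested. DAAO 3, with the highest macrophage sum, was the fourth highest of its group in Ucn2 at 4.21 CPM. Atf3 ran from 9.78 to 20.6 CPM in controls and from 44.6 to 93.6 CPM in DAAO. DAAO 4 and DAAO 5 were lowest of their group in Atf3, in the macrophage sum and in Ucn2. They were also highest of their group in the pan-neuronal sum (12147 and 11880 CPM). After subtracting group means, log2 Ucn2 had r = 0.34 and rho = 0.33 over the 12 libraries with the macrophage sum. It had 0.56 and 0.68 with endothelium, 0.55 and 0.58 with skeletal muscle, and -0.50 and -0.32 with pan-neuronal markers. None of these links was tested, and the control values of Ucn2 rest on 0 to 11 counts per library.

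**Figure D2:**
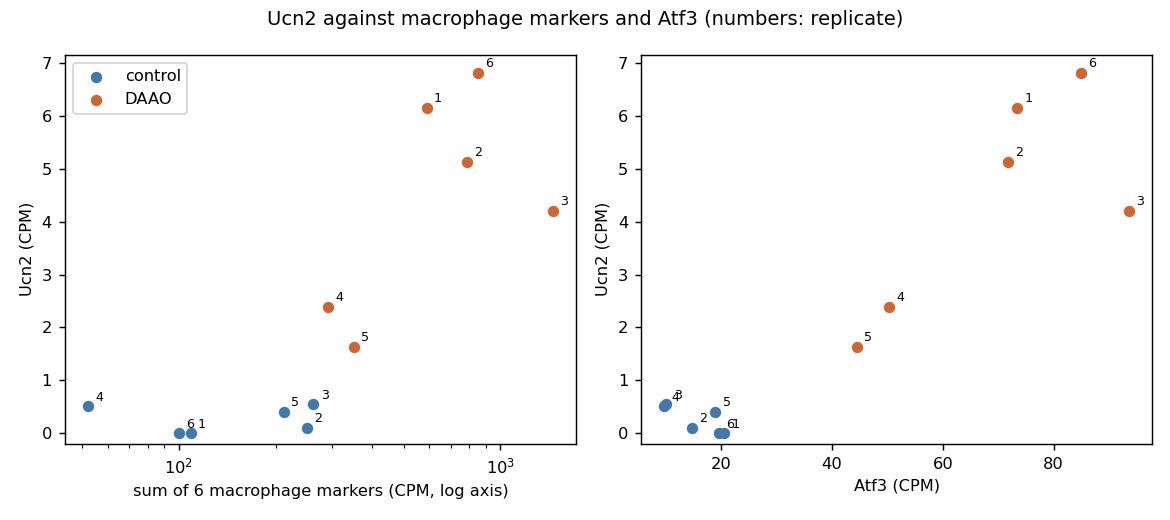
Ucn2 in CPM for each library against the summed CPM of 6 macrophage markers (left, log axis) and against Atf3 in CPM (right, linear axis); numbers give the replicate. The 6 control libraries lie at or below 0.549 CPM of Ucn2 and the 6 DAAO libraries at or above 1.64 CPM; the groups are also apart in both x values.

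None of the peptides of the peptidergic nociceptors passed the test. Calca (ENSMUSG00000030669; chromosome 7, 114631478 to 114636357) gives rise to alpha-CGRP in neurons and to calcitonin in the thyroid, and its gene count pools both products. It had 1231, 1484 and 2056 CPM as lowest, median and highest value in controls and 1269, 1489 and 1869 CPM in DAAO. The groups overlapped fully, with control 6 highest of all, and the fold change was 0.989 with an interval from 0.805 to 1.21 (adjusted p = 0.992 by edgeR). Calcb, the gene of beta-CGRP, had 108, 173 and 197 CPM in controls and 111, 134 and 175 CPM in DAAO. Of the DAAO libraries 5 of 6 lay below the control median, but the log2 fold change of -0.20 ± 0.16 (SE) did not pass (adjusted p = 0.751). Tac1, whose precursor yields substance P and neurokinin A, had 270, 344 and 419 CPM in controls and 306, 363 and 452 CPM in DAAO. Its log2 fold change was 0.12 ± 0.14, with DAAO 5 highest (adjusted p = 0.860). Adcyap1, the gene of PACAP, had 74.7, 103 and 129 CPM and 87.8, 95.5 and 114 CPM, with all DAAO values inside the control range and a log2 fold change of -0.09 ± 0.14 (adjusted p = 0.911).

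The balance among these peptides within a library, which does not depend on scaling, was compared as log2 ratios of counts. The ratio of Calcb to Calca was 10.5% in controls and 9.27% in DAAO, with a log2 difference of -0.18 ± 0.09 (SE; two-sided exact permutation p = 0.0801 over 6 against 6 libraries, or 0.481 adjusted over 6 ratios chosen after their values were seen). The ratio of Tac1 to Calca differed by 0.13 ± 0.09 (exact permutation p = 0.162, adjusted 0.487) and that of Adcyap1 to Calca by -0.06 ± 0.11 (exact permutation p = 0.645, adjusted 0.777). None of these ratios passed. Of 7 other markers of peptidergic nociceptors, among them Trpv1, the capsaicin receptor, none was called by edgeR or DESeq2 and none had an unadjusted p under 0.05, which 10.3% of all genes tested had; their median log2 fold change was 0.06. Of 6 markers of large-diameter neurons, which signal touch and limb position, 2 fell, beside 0.247% of all genes tested that were called lower. Runx3 fell from 6.60 to 1.53 CPM (adjusted p = 0.00455 by edgeR) and Calb1 from 61.8 to 34.8 CPM (adjusted p = 0.0202 by edgeR). Without DAAO 1, 2, 3 or 6, 1 marker was called in place of 2. The sum of these 6 ran from 1542 to 3388 CPM in controls and from 1239 to 1893 CPM in DAAO, and its part in the peptide levels was not tested.

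The itch peptides gave no call. Nppb (ENSMUSG00000029019; chromosome 4, 147985788 to 147987205), the natriuretic peptide that itch neurons release in the spinal cord, had 10.6, 25.6 and 38.3 CPM as lowest, median and highest value in controls and 18.0, 22.5 and 24.2 CPM in DAAO. All 6 DAAO libraries lay below the control median but inside the control range, and the log2 fold change was -0.22 ± 0.23 (SE; adjusted p = 0.837). Sst, the somatostatin gene (ENSMUSG00000004366; chromosome 16, 23889573 to 23890958), had 12.9, 28.5 and 98.1 CPM in controls and 15.0, 29.6 and 39.0 CPM in DAAO. Control 2 held the value of 98.1, and the next highest control had 44.0 CPM. The log2 fold change of Sst was -0.41 ± 0.42 (adjusted p = 0.839) and turned to 0.11 without control 2 (adjusted p = 0.910). Within libraries the ratio of Sst to Nppb differed by -0.06 ± 0.37 on the log2 scale (two-sided exact permutation p = 0.859, adjusted 0.859 over the 6 ratios). The 6 other pruriceptor markers, led by Osmr and Il31ra, the subunits of the interleukin-31 receptor, all had positive log2 fold changes with a median of 0.18. None was called by edgeR, while DESeq2 and limma-voom each called 1. An unadjusted p under 0.05, which 10.3% of all genes tested had, was found for 2, Ptafr and the serotonin receptor Htr1a. The groups of Htr1a did not overlap, as held for 1.45% of all genes tested (8.23 ± 1.83 and 13.8 ± 2.20 CPM, adjusted p = 0.0956 by edgeR).

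Neurotensin, a peptide of itch neurons that also changes after nerve injury in rodents, gave no call. Nts (ENSMUSG00000019890; chromosome 10, 102481756 to 102490486) had 12.4, 24 and 36 CPM in controls and 16.7, 18.6 and 30.1 CPM in DAAO. The value of 30.1 was that of DAAO 3, and the other 5 DAAO libraries lay below the control median. Its log2 fold change was -0.28 ± 0.23 (SE; adjusted p = 0.764 by edgeR), and the ratio of Nts to Nppb differed by -0.10 ± 0.20 (two-sided exact permutation p = 0.647, adjusted 0.777).

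Galanin, which acts on Galr1 and Galr2 and is among the peptides known to rise most after axotomy, was not called. Gal (ENSMUSG00000024907; chromosome 19, 3409919 to 3414472) had 13.7, 21.0 and 36.3 CPM as lowest, median and highest value in controls and 16.0, 23.2 and 42.9 CPM in DAAO. The groups overlapped, with control 5 lowest and DAAO 5 highest of all. The log2 fold change was 0.13 ± 0.27 (SE; adjusted p = 0.937), and -0.09 without DAAO 5 (adjusted p = 0.963). The log2 ratio of Gal to Calca within a library differed by 0.14 ± 0.21 (exact permutation p = 0.535, adjusted 0.777). In DAAO 5, the library highest in Gal, Atf3 was lowest of its group at 44.6 CPM. That is 1 library, and a link of Gal to Atf3 was not tested.

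Neuropeptide Y is normally scarce in sensory neurons and is made by large neurons after a nerve cut in rodents; it is also made by neurons of the spinal dorsal horn and by sympathetic neurons. Npy (ENSMUSG00000029819; chromosome 6, 49822710 to 49829507) had 0, 1.15 and 11.5 CPM as lowest, median and highest value in controls and 0.0545, 2.58 and 3.03 CPM in DAAO. Control 2 held the 11.5 CPM, control 6 had no read and DAAO 4 had 1 read. The log2 fold change was -0.24 ± 1.01 (SE; adjusted p = 0.974) and 1.33 ± 0.87 without control 2 (adjusted p = 0.537), and the 95% interval over all libraries ran from 0.215-fold to 3.31-fold. Npy and the spinal cord markers were high in the same libraries. Control 2 had the highest marker sum, 2451 CPM, and control 4, control 6 and DAAO 4, with the 3 lowest sums of 25.8, 82.1 and 101 CPM, had the 3 lowest Npy values. Over the 12 libraries, after subtracting group means, the log2 levels of Npy and of this sum had a Pearson r of 0.87 and a Spearman rho of 0.92; for Sst they were 0.60 and 0.43. Other marker sums moved with these genes as well. Npy had r = 0.77 and rho = 0.55 with satellite glia, 0.73 and 0.86 with lymphocyte and neutrophil, 0.71 and 0.66 with Schwann cell, and -0.79 and -0.69 with large-diameter neuron markers. Sst had 0.76 and 0.50 with Schwann cell and 0.73 and 0.31 with satellite glia markers, both higher in r than with spinal cord. Control 2 was the highest library in Schwann cell (24311 CPM), satellite glia (1906 CPM) and lymphocyte and neutrophil (119 CPM) sums too. These are descriptions over libraries that differ in tissue content, and the part of these tissues in the Npy and Sst counts was not tested. The 5 markers of sympathetic neurons summed to between 0 and 1.06 CPM in controls and between 0.359 and 1.79 CPM in DAAO, with Hand2 at 0 in every library.

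**Figure D3:**
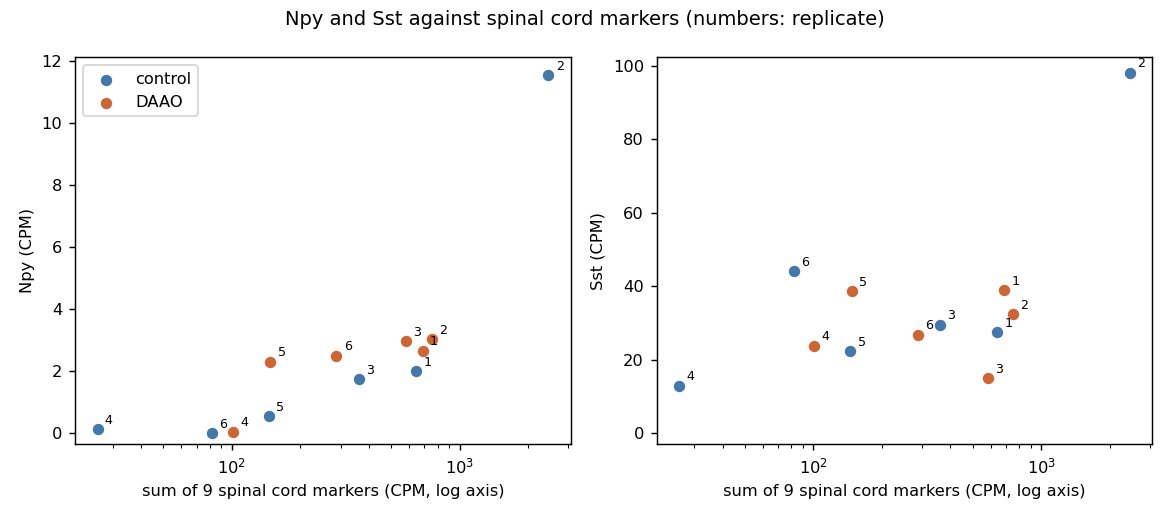
Npy (left) and Sst (right) in CPM, linear axes, against the summed CPM of 9 spinal cord markers on a log axis, one point per library with its replicate number. Control 2 is highest on all 3 measures; the 3 libraries with the lowest marker sums have the 3 lowest Npy values, whereas Sst in these 3 is 12.9, 44.0 and 23.9 CPM.

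The precision of the 9 members that were not called differed. For 7 of them, Calca, Calcb, Tac1, Adcyap1, Gal, Nts and Nppb, the 95% interval lay inside a 2-fold change in either direction. For Sst it ran from 0.422-fold to 1.34-fold, and that of Npy passed 2-fold in both directions. Over all 10 members the log2 fold change was positive in 3 and negative in 7, with a median of -0.14, beside 0.00 over all genes tested. Of all genes tested 50.4% were positive. Some members changed sign in alternative fits, and members varied together across libraries, so these are not 10 separate signs.

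**Figure D4:**
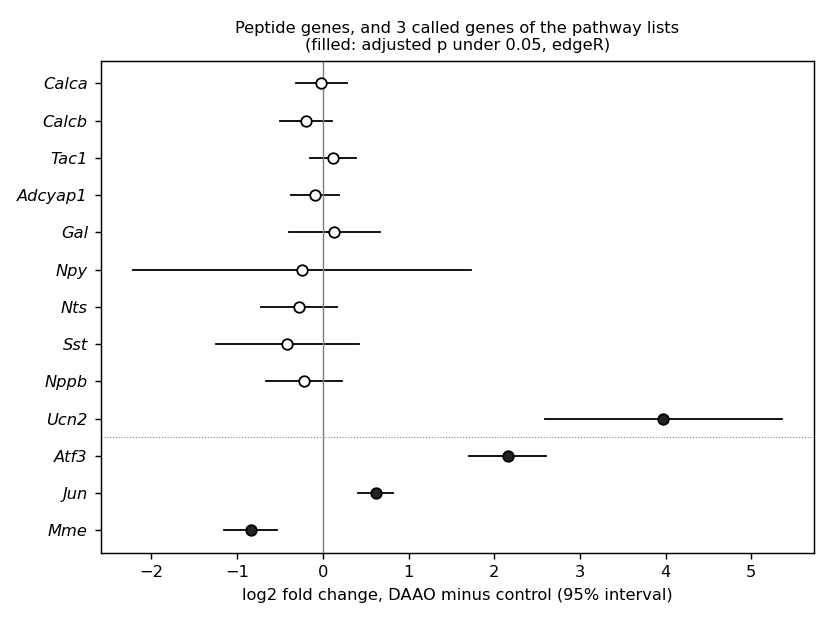
Log2 fold change of DAAO minus control with its 95% interval for the 10 peptide genes and, under the dotted line, for the 3 called genes of the pathway lists; filled points have an adjusted p under 0.05 by edgeR. The intervals of Calca, Calcb, Tac1, Adcyap1, Gal, Nts and Nppb lie within 1 unit of 0, that of Npy is the widest, and that of Ucn2 runs from 2.59 to 5.36.

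The members also varied from library to library within groups. After subtracting group means, the log2 levels of Calca and Calcb had a Pearson r of 0.85 over the 12 libraries and those of Calca and Tac1 0.81, while Calca and Sst had 0.04 and Calca and Ucn2 -0.73. The libraries share differences in tissue content, so these values are descriptions. Those of Ucn2 also hold counting error, as single control libraries had 0 to 11 counts of it. Among 13829 genes with a mean of at least 1 CPM, those with the highest r to each member were named. They were Kctd8, Fam124a and Ldb2 for Calca (r = 0.92, 0.91 and 0.91), and Gna14, Csnk2a1 and Vstm5 for Calcb (0.92, 0.91 and 0.90). Tac1 had Rpgrip1, Rpp40 and Ube2d2a (r = 0.91, 0.89 and 0.89), and Adcyap1 had Catsperz, Mblac2 and Dmap1 (0.91, 0.90 and 0.87). Srp19, Snrnp25 and Smim14 were nearest to Nppb (r = 0.94, 0.93 and 0.93), Tmem191c, Pm20d1 and Mdm1 to Sst (0.94, 0.93 and 0.93), and Chek2, Btg3 and Map2k3os to Nts (0.91, 0.87 and 0.87). Rhov, Mon1a and March2 were nearest to Gal (r = 0.91, 0.90 and 0.90), Tunar, Cd83 and Ttpa to Npy (0.97, 0.96 and 0.94), and Polg, Ednra and Cfap99 to Ucn2 (0.91, 0.90 and 0.90). None of them was called between the groups by edgeR, the smallest adjusted p being 0.459, for Btg3.

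The receptors of these peptides, measured in the ganglia themselves, gave no call. Of 33 receptor and binding genes 25 were tested and none passed by edgeR or DESeq2. The median log2 fold change was 0.02. An unadjusted p under 0.05 by edgeR, which 10.3% of all genes tested had, was found for 3, Crhbp, Sstr4 and Sstr2. Crhbp had the smallest p of the list (unadjusted p = 0.0293 by edgeR) and was lower in DAAO, with a log2 fold change of -1.24 ± 0.52 (SE). Sstr2, a somatostatin receptor, had 5.11 ± 2.23 and 7.66 ± 1.32 CPM (adjusted p = 0.472) and Sstr4 had 0.431 ± 0.464 and 1.58 ± 1.0 CPM (adjusted p = 0.470). Npr3, the clearance receptor of natriuretic peptides, had 3.30 ± 1.19 and 5.81 ± 3.71 CPM (adjusted p = 0.503). The galanin receptor Galr1 was at 5.50 ± 1.90 and 6.53 ± 2.77 CPM, and Npy1r and Npy2r, the neuropeptide Y receptors of sensory neurons, had log2 fold changes of 0.13 ± 0.19 and 0.02 ± 0.17.

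The machinery that makes and packs peptides was not called either. All 20 genes of this list were tested and none passed by edgeR or DESeq2, with 3 at an unadjusted p under 0.05 and a median of -0.05. Pcsk1, a prohormone convertase, had 57.6 ± 14.1 and 42.9 ± 9.87 CPM (adjusted p = 0.405), and Furin, a convertase of the secretory pathway, 30.0 ± 8.25 and 42.7 ± 7.33 CPM (adjusted p = 0.287). Cpe, the carboxypeptidase that trims peptide ends, and Pam, the enzyme that amidates them, had log2 fold changes of -0.01 ± 0.11 and 0.06 ± 0.10.

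Among 12 peptidases that break peptides down, 1 fell, beside 0.247% of all genes tested that were called lower. It was Mme, which encodes neprilysin, a membrane enzyme that degrades substance P and natriuretic peptides. The groups did not overlap, as held for 1.45% of all genes tested. Mme ran from 37.8 to 71.5 CPM in controls and from 25.6 to 33.1 CPM in DAAO. Its log2 fold change was -0.84 ± 0.16 (SE; adjusted p = 0.0157 by edgeR); the call was lost without DAAO 2 or DAAO 6 (adjusted p = 0.0567 and 0.0582). Anpep, aminopeptidase N, had 8.36 ± 5.29 and 23.9 ± 10.8 CPM and did not pass by edgeR (adjusted p = 0.157), but was called by DESeq2. The median of the list was 0.12, with 9 members above 0 and 3 below.

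Other neuropeptides gave no call. Of 27 genes 14 were tested, and none was called by edgeR or DESeq2 or had an unadjusted p under 0.05, with a median of -0.13. The smallest p belonged to Pomc, the precursor of beta-endorphin, with 0.473 ± 0.510 and 0.858 ± 0.473 CPM (adjusted p = 0.805), and Adm, the gene of adrenomedullin, with 2.76 ± 1.75 and 3.42 ± 0.856 CPM (adjusted p = 0.888). Nmb, the gene of neuromedin B, had 99.8 ± 15.8 and 107 ± 32.6 CPM. Cartpt had 28.6 ± 16 and 27.2 ± 4.10 CPM, and Penk, the enkephalin precursor, 30.4 ± 39.2 and 29.2 ± 12.7 CPM. Vip, the gene of vasoactive intestinal peptide, a further peptide known to rise after axotomy in rodents, was too low to be tested, with 78 and 14 counts over the 6 libraries of each group.

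Factors known to set peptide levels were followed as a list of 16, of which 14 were tested. Of these 2 rose, both transcription factors, beside 0.506% of all genes tested that were called higher. Atf3 rose from 15.7 ± 4.83 to 69.8 ± 19.1 CPM, and Jun from 103 ± 12.6 to 157 ± 7.84 CPM (log2 fold change 0.62 ± 0.10 SE; adjusted p = 0.00789). None of the others passed. Lif, a cytokine that induces galanin in rodents, had 1.33 ± 0.781 and 2.16 ± 0.233 CPM (adjusted p = 0.633). Gdnf had 0.608 ± 1.01 and 4.09 ± 1.84 CPM (adjusted p = 0.276, called without control 3). The median of the list was 0.26, beside 0.00 over all genes tested.

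**Figure D5:**
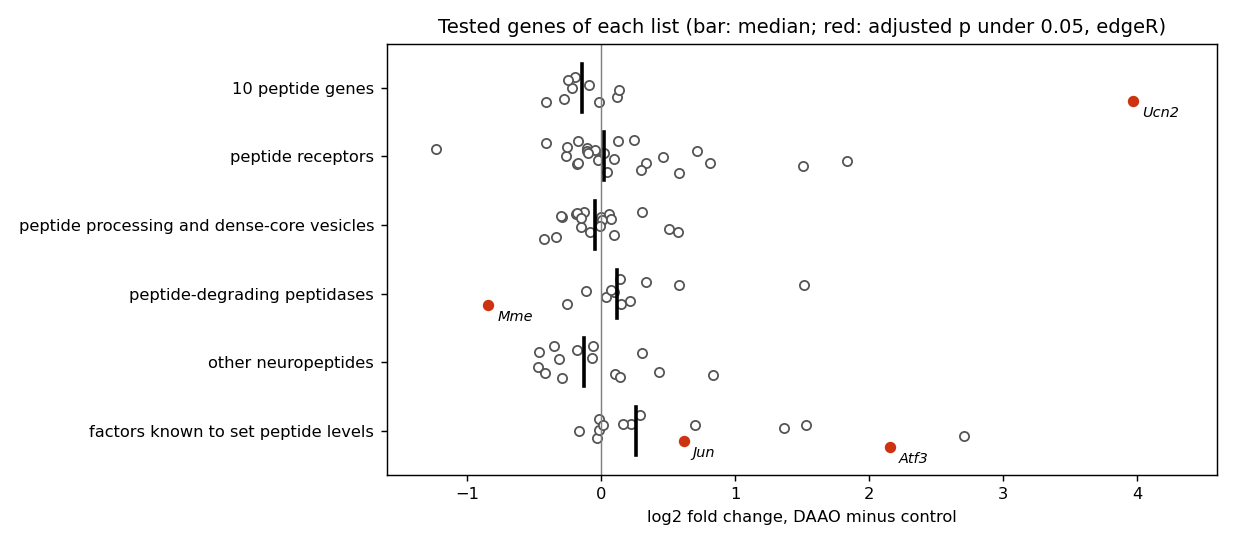
Log2 fold change of DAAO minus control for each tested gene of the 10 peptide genes and of 5 lists around them; black bars are medians and red points are genes with an adjusted p under 0.05 by edgeR. Called genes are Ucn2, Mme, Jun and Atf3, and the medians lie between -0.14 and 0.26.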

How the data were processed

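Total RNA of 12 ganglion libraries was sequenced as paired reads, per the labels' protocols. The authors deposited whole-number read counts per gene, not normalised; the submitters' processing notes name HISAT2 2.0.5, FastQC, DESeq2 1.20.0, GRCm38 and mm10. The deposited table's gene length column (other unit, bases) was used for levels per kilobase. No source used here states the counting program, strand setting, treatment of shared reads or annotation.

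Genes passing edgeR's filterByExpr (minimum count 10, minimum total 15) were tested, 17002 of 54532, all 10 members among them. Counts were scaled with TMM and fitted as 6 DAAO against 6 control libraries by the quasi-likelihood test of edgeR 4.0.16, robust setting (R 4.3.3), two-sided, adjusted by Benjamini-Hochberg over all genes tested, with a threshold of 0.05. SE came from the log2 fold change and the F statistic, and 95% intervals are 1.96 SE either side. They are approximate and can be too narrow for 6 libraries per group. The log2 interval of Npr3, 0.0379 to 1.58, left out 0 while its unadjusted quasi-likelihood p was 0.0558. Count ratios were compared with exact permutation tests over 924 splits, whose smallest p is 0.00216. The scripts were tested on simulated data.

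The members, lists and marker sets were chosen with earlier results of these data known. Genes named from lists are those called and the 2 with the smallest p, and the 3 nearest genes to each member are those with the highest r of log2 CPM, leaving out predicted genes and pseudogenes; others were chosen after their values were seen. Alternatives were DESeq2 1.42.0, limma-voom (limma 3.58.1), other scaling and filters, the replicate number as a block, pan-neuronal and spinal cord levels (prior count 2) as covariates, and each library left out. All pairs of libraries differed by more than sampling noise (smallest chi-square per degree of freedom 20.0 over 66 pairs). Floors and counts cover counting error only.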

Additional observations from a re-analysis of the deposited data

Results flagged for a closer look

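Gaps within a group of 6 were examined for the 10 members in both groups, 20 in all, where chance flags about 1 in 20; 4 stood out. Control 2 had 11.5 CPM of Npy, against 2.0 CPM in the next highest control, and 98.1 CPM of Sst, against 44.0 CPM. DAAO 4 had 0.0545 CPM of Npy, against 2.31 CPM in the next lowest DAAO library. DAAO 3 had 30.1 CPM of Nts, against 19.3 CPM in the next highest. The sum of 9 spinal cord markers was 2451 CPM in control 2, the highest of all libraries, and 101 CPM in DAAO 4, the lowest of its group. Control 2 was also highest in the sums of Schwann cell (24311 CPM), satellite glia (1906 CPM) and lymphocyte and neutrophil (119 CPM) markers; the part of these tissues in these values was not tested.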

How the results depend on the processing

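Across 21 alternatives, Ucn2 kept its direction (log2 fold change from 3.71 to 4.38) and was called in 19. The number of the 10 members called went from 1 to 0 with limma-voom with sample weights (1 with an unadjusted p under 0.05) and to 0 with the replicate number as a block, where Ucn2 had 4.10 (adjusted p = 0.0513); leaving out each library gave 1 throughout. The numbers do not pair the libraries: same-numbered deviations correlated above 0.1 in 2 of 6 pairs, and 3 of 6 controls correlated best with their own number. The block moved the calls over all genes from 128 to 187, against 362 with DESeq2, 295 with limma-voom and between 61 and 322 when each library was left out. Over the pathway lists 3 genes were called, between 2 and 5 when each library was left out. The causes were not tested. No other member was called in any alternative, but 6 changed sign in some. Calca turned to 0.0835 with the pan-neuronal and 0.0211 with the spinal cord covariate, and lay between -0.0796 and 0.0817 when each library was left out. Npy turned to 0.62 with limma-voom, 0.78 with the replicate block, 0.15 and 0.38 with these covariates and 1.06 without controls 2 and 4 (chosen after seeing the data), and lay between -0.52 and 1.33 when each library was left out. Sst turned to 0.0881, Nppb to 0.0436 and Adcyap1 to 0.00441 with limma-voom. When each library was left out Sst lay between -0.59 and 0.11 and Gal between -0.0867 and 0.31; Gal was -0.0243 without controls 2 and 4. By CPM without division by length, 8 of the 10 members kept their rank, while Calcb and Tac1 exchanged ranks 2 and 3. Low counts limit Npy and Ucn2, with medians of 1.15 and 0.256 CPM in controls.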
